A study of Mus musculus with 12 samples.

Results

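Open chromatin was examined around 5 genes that encode transcription factors of effector regulatory T cells (Treg): Irf4, Batf, Batf3, Irf8 and Maf. Every accessible region that overlapped the gene body or the 50 kb on either side of it in the mm9 mouse genome was taken, which gave 75 of the 118680 regions of the data set. Irf4 contributed 20 regions, Batf 20, Batf3 10, Irf8 17 and Maf 8. The regions were measured by ATAC-seq, in which Tn5 transposase inserts adapters into open DNA. The YFP+ Treg came from spleens of B6-background mice. WT Treg came from Foxp3-YFP-Cre mice. Ikzf1-cko Treg came from Ikzf1-fl-Foxp3-YFP-Cre mice, which carry in addition a floxed allele of Ikzf1, the gene of the zinc finger factor Ikaros. Both genotypes carried the Foxp3-YFP-Cre driver, so the Cre acted in Foxp3-expressing cells and the other cells of the host kept Ikaros. Treg of each genotype were used directly ex vivo or after 4 hr on plate-bound anti-CD3 plus anti-CD28, and each of the 4 groups had 3 libraries of 100000 cells. Sorted Treg were divided between the ex vivo and the stimulated condition, so libraries of these 2 conditions can come from the same sort. The methods call the replicates biological. The age of these mice, the number of animals behind a library and the libraries that share a sort are not given in the sources used here.

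Treg that have met antigen turn into effector Treg, which suppress immune responses in tissues. IRF4 is induced by signals through the T cell receptor and is needed for this step. It binds DNA poorly alone and is recruited to composite sites with BATF, an AP-1 family factor that pairs with JUN proteins. BATF3 is a close relative of BATF and is best known for its role in dendritic cells. IRF8 is the closest relative of IRF4 and is best known in myeloid cells, dendritic cells and B cells. c-MAF, the product of Maf, is a bZIP factor that promotes IL-10 production in T cells, including Treg. Ikaros binds DNA through a GGGAA core.

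Of the 75 regions, 56 passed the filter on low counts, and 6 of these 56 differed in at least 1 of the comparisons below by more than 1 on the log2 scale at an edgeR adjusted p under 0.05. The 300 bases at the centre of each of these 6 regions are shown here on the forward strand of mm9. Capitals mark matches to the AP-1 motif TGACTCA, the Ikaros core GGGAA and the IRF repeat, which is 2 copies of GAAA with any 2 bases between them, each searched on both strands. The windows are chr13:30818842-30819141 for Irf4 OCR_28636 (intergenic, 22.1 kb before the start site), chr13:30845948-30846247 for Irf4 OCR_28642 (intronic), chr12:87019898-87020197 for Batf OCR_25288 (intergenic, 7.6 kb before the start site), chr12:87070638-87070937 for Batf OCR_25297 (intergenic, 20.3 kb past the end of the gene), chr8:123325045-123325344 for Irf8 OCR_110618 (44.3 kb past the end of the gene, in an intron of Gm20388) and chr8:118266589-118266888 for Maf OCR_110208 (intergenic, 35.0 kb before the start site).
Irf4 OCR_28636: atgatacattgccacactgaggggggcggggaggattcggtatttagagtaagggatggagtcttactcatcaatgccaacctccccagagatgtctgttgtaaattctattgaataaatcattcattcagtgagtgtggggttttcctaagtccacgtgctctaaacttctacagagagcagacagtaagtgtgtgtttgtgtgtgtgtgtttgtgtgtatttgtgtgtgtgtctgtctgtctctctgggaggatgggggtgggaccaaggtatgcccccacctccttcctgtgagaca
Irf4 OCR_28642: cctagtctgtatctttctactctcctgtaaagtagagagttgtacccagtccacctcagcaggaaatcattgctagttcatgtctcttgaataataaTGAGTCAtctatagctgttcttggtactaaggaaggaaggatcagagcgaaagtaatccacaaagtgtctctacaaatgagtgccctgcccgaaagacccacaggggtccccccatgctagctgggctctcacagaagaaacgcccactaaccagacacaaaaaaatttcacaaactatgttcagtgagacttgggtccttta
Batf OCR_25288: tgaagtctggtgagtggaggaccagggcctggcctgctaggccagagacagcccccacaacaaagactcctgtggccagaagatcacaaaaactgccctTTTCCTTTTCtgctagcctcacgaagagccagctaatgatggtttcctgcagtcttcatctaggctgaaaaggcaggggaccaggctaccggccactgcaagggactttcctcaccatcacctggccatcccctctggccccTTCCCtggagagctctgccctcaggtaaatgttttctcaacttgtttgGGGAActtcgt
Batf OCR_25297: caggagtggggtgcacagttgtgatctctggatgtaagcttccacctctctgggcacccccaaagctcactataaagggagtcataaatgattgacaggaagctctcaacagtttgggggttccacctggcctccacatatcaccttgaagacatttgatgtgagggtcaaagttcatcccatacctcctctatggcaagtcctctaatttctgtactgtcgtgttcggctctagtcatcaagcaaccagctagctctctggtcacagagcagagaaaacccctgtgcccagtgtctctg
Irf8 OCR_110618: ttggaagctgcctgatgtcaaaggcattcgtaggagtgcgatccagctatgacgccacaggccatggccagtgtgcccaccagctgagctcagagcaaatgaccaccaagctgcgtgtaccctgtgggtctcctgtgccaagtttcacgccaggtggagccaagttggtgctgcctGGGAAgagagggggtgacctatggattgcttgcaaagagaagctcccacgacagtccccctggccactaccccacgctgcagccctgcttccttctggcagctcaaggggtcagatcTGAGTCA
Maf OCR_110208: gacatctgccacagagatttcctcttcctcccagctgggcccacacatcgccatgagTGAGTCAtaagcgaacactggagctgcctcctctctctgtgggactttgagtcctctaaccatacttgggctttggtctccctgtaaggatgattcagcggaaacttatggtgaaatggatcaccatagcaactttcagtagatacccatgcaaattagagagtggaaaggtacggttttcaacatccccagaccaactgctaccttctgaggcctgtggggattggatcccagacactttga

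AP-1 matches lay in the windows of OCR_28642, OCR_110618 and OCR_110208. The window of Batf OCR_25288 held 1 IRF repeat and 2 GGGAA cores, and that of OCR_110618 held 1 GGGAA core. The windows of OCR_28636 and OCR_25297 held no match. Across the 75 regions, the AP-1 motif was present in 15 windows (20.0%), against 11.01% of the 118480 regions of the data set with a window in the genome. GGGAA was present in 43 windows (57.33%), against 59.01%. The IRF repeat was present in 6 windows (8.0%), against 4.03%, and the ETS-IRF composite, a site read by PU.1 or a relative together with an IRF and searched as GGAA, any 2 bases and GAAA, in 2 windows (2.67%), against 2.64%. Neither of the AP-1-IRF composites, the joint sites of IRF4 with BATF and JUN searched as TTTC, any 4 bases and TGANTCA or as GAAA directly before TGANTCA, was found in any of the 75 windows, and 0.27% and 0.35% of all windows held them. GGAA lies within GGGAA and TGACTCA is 1 form of TGANTCA, so the same letters can count for more than 1 motif. A match describes the letters only, and these ATAC-seq libraries do not measure binding of a factor.

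Counted reads per library ran from 5197669 to 8596567 in ex vivo WT, from 11698967 to 15355521 in ex vivo Ikzf1-cko, from 4808916 to 6047073 in stimulated WT and from 9221901 to 11465957 in stimulated Ikzf1-cko. All Ikzf1-cko libraries were thus deeper than all WT libraries. Libraries of stimulated WT correlated least within their group (0.945 to 0.956 on log2(CPM + 1), against 0.967 to 0.99 in the other groups). All 6 Treg and T cell markers (Foxp3, Il2ra, Ctla4, Cd4, Cd3e, Cd28) had an accessible start site, at group means of 11.18 to 63.21 FPKM, reads per kilobase of region scaled to the counted reads of the library. The sum over Cd8a and Cd8b1 was lower in Ikzf1-cko (12.5 FPKM ex vivo and 15.3 stimulated) than in WT (21.9 and 21.3). Of 4 B cell markers, Cd79a, Ms4a1 and Pax5 had no region over a start site and Ebf1 had 9.74 to 14.05 FPKM. Of 6 myeloid and dendritic cell markers, Cd14 alone had a start site region, at 6.98 to 8.7 FPKM. Of 2 NK cell markers Klrb1c had one (4.97 to 5.95 FPKM), and of 3 erythroid markers Gata1 had (4.75 to 8.53 FPKM). The part of other cell types in the results was not tested. Over the gene body of Ikzf1, the targeted gene, 28 of 31 regions were tested and both start site regions were open in every group (OCR_16469 at 19.2 ± 1.37 FPKM in ex vivo WT and 19.35 ± 0.99 in ex vivo Ikzf1-cko, SD, n = 3). The deleted part of the gene is not given in the sources used here, so accessibility does not check the genotype.

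The 5 start sites were open in all 4 groups, with Maf the most and Batf3 the least accessible. In ex vivo WT, the start site region of Maf (OCR_110205) had 34.9, 32.2 and 34.7 FPKM in the 3 libraries, that of Irf4 (OCR_28640) 24.9, 27.4 and 28.9, and that of Batf (OCR_25289) 19.1, 22.4 and 19.9. The start site region of Irf8 (OCR_110612) had 18.7, 16.6 and 20.4 FPKM and that of Batf3 (OCR_8534) 6.14, 10.4 and 8.91. The libraries of Batf and Irf8 overlap, so these neighbours in the order do not differ beyond their spread, while the libraries of all other neighbours are separate. Among 13945 start site regions of protein-coding genes, the ex vivo WT level of Maf lay at percentile 71.7, Irf4 at 62.5, Batf at 50.7, Irf8 at 46.9 and Batf3 at 21.0. A second annotated start of Irf8 lies inside the gene (OCR_110613) and had 7.9 ± 1.41 FPKM in ex vivo WT (SD, n = 3).

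**Figure D1:**
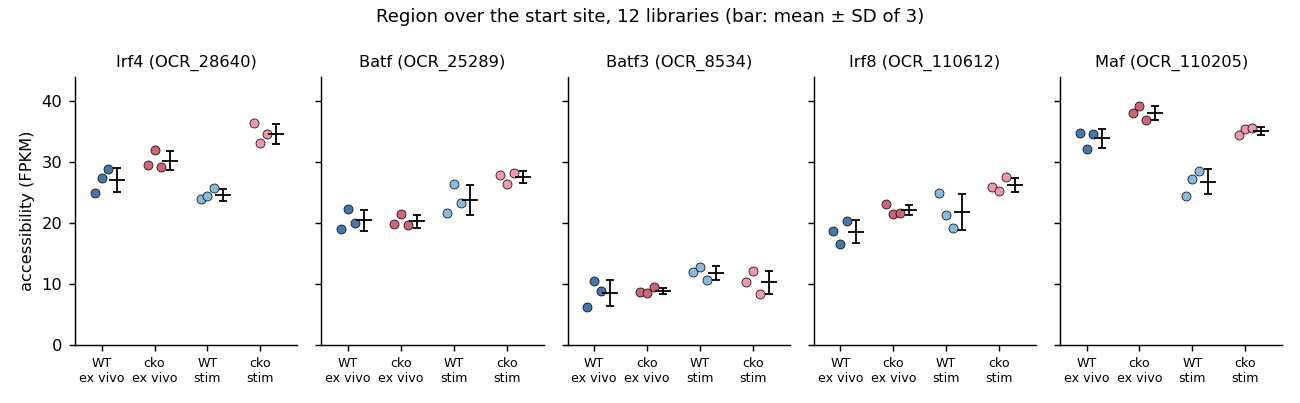
Accessibility in FPKM of the region over the start site of each gene. Each point is 1 library of the group named below it (cko, Ikzf1-cko; stim, stimulated) and the bar is the mean ± SD of 3 libraries. The mean of Maf is highest and that of Batf3 lowest in every group, and in stimulated Ikzf1-cko Irf4 (34.7) and Maf (35.1) lie close together.

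The loci differed in how much open chromatin surrounded them. Irf4 had 17.0 regions per 100 kb of window, Batf 16.3, Irf8 14.1, Batf3 9.0 and Maf 6.4. Of the 75 regions, 35 lay before the gene, 21 within it and 19 past it. By annotation 34 were intergenic, 27 intronic and 14 touched an exon, and 12 were nearest to a gene other than the one they were chosen for. The windows also hold Dusp22, Exoc2 and Gm11370 (Irf4), Jdp2, Mfsd7c and n-R5s64 (Batf), Nsl1 and Tatdn3 (Batf3), 7SK, AC114819.1 and Gm20388 (Irf8) and Gm15655 (Maf). Gm20388 spans the whole window of Irf8, so no region there is annotated as intergenic. These data do not assign a region to the gene it acts on. The libraries are bulk samples, in which a different share of effector Treg and a different accessibility per cell cannot be told apart.

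Between genotypes, most of these regions stayed within the thresholds. Ex vivo, 3 of the 56 tested regions (5.36%) passed both thresholds, 2 more and 1 less accessible in Ikzf1-cko, and 4.63% of the 69957 tested regions of the genome did so. After stimulation, 2 of 56 (3.57%) passed, 1 more and 1 less accessible, against 21.3% of all tested regions. The less accessible region, Irf8 OCR_110618, passed the filter on low counts only through WT libraries. Of the regions called ex vivo, Irf4 OCR_28636 reached the minimum of this filter in 0 ex vivo Ikzf1-cko libraries. Batf OCR_25288 reached it in 0 ex vivo WT libraries. At an adjusted p under 0.05 with no fold threshold, 7 regions were more accessible ex vivo (12.5%, against 8.78% of all regions) and 4 less (7.14%, against 12.7%). The count of 7 was 15 with TMM scaling, 11 without ex vivo Ikzf1-cko replicate 3 and 4 without ex vivo WT replicate 2, and the count of 4 was 1 with DESeq2 and 2 with loess normalization. Counts over all 69957 regions moved as well. The 6145 more accessible regions became 10064, 7483 and 3844 in the same order, and the 8906 less accessible ones 3962 and 5386. After stimulation the same threshold was passed by 18 more accessible regions (32.1%, against 20.4%) and 1 less accessible region (1.79%, against 30.7%). With each library left out these counts were 13 to 19 and 1 to 3, and over all regions 11270 to 14732 and 17712 to 22299. Of the 7 regions more accessible ex vivo, 5 were also more accessible after stimulation (71.4% of the former and 27.8% of the latter list): Irf4 OCR_28644 and OCR_28649, Batf OCR_25293, Batf3 OCR_8535 and Maf OCR_110208. The median log2 fold change of the 56 regions was 0.03 ex vivo and 0.21 after stimulation, beside -0.13 and -0.11 over all tested regions. With loess normalization, which evens out differences that follow abundance, 13 regions passed after stimulation, all of them more accessible (13.5% of all regions were more and 15.3% less accessible). The direction over the genome also depended on this choice: 411 regions were called higher and 2827 lower ex vivo, and 813 higher and 14119 lower after stimulation, which became 863 and 730, and 1611 and 3120, with loess normalization. The shares depended on the filter as well. With 3.6 CPM required in all 12 libraries, 0 of 36 members passed both thresholds after stimulation. Over the 34257 regions so tested, 500 were higher and 358 lower. At the adjusted p alone 16 members were more and 0 less accessible after stimulation, beside 12564 and 3377 regions. The medians after stimulation were then 0.29 for the members and 0.18 over all regions.

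**Figure D2:**
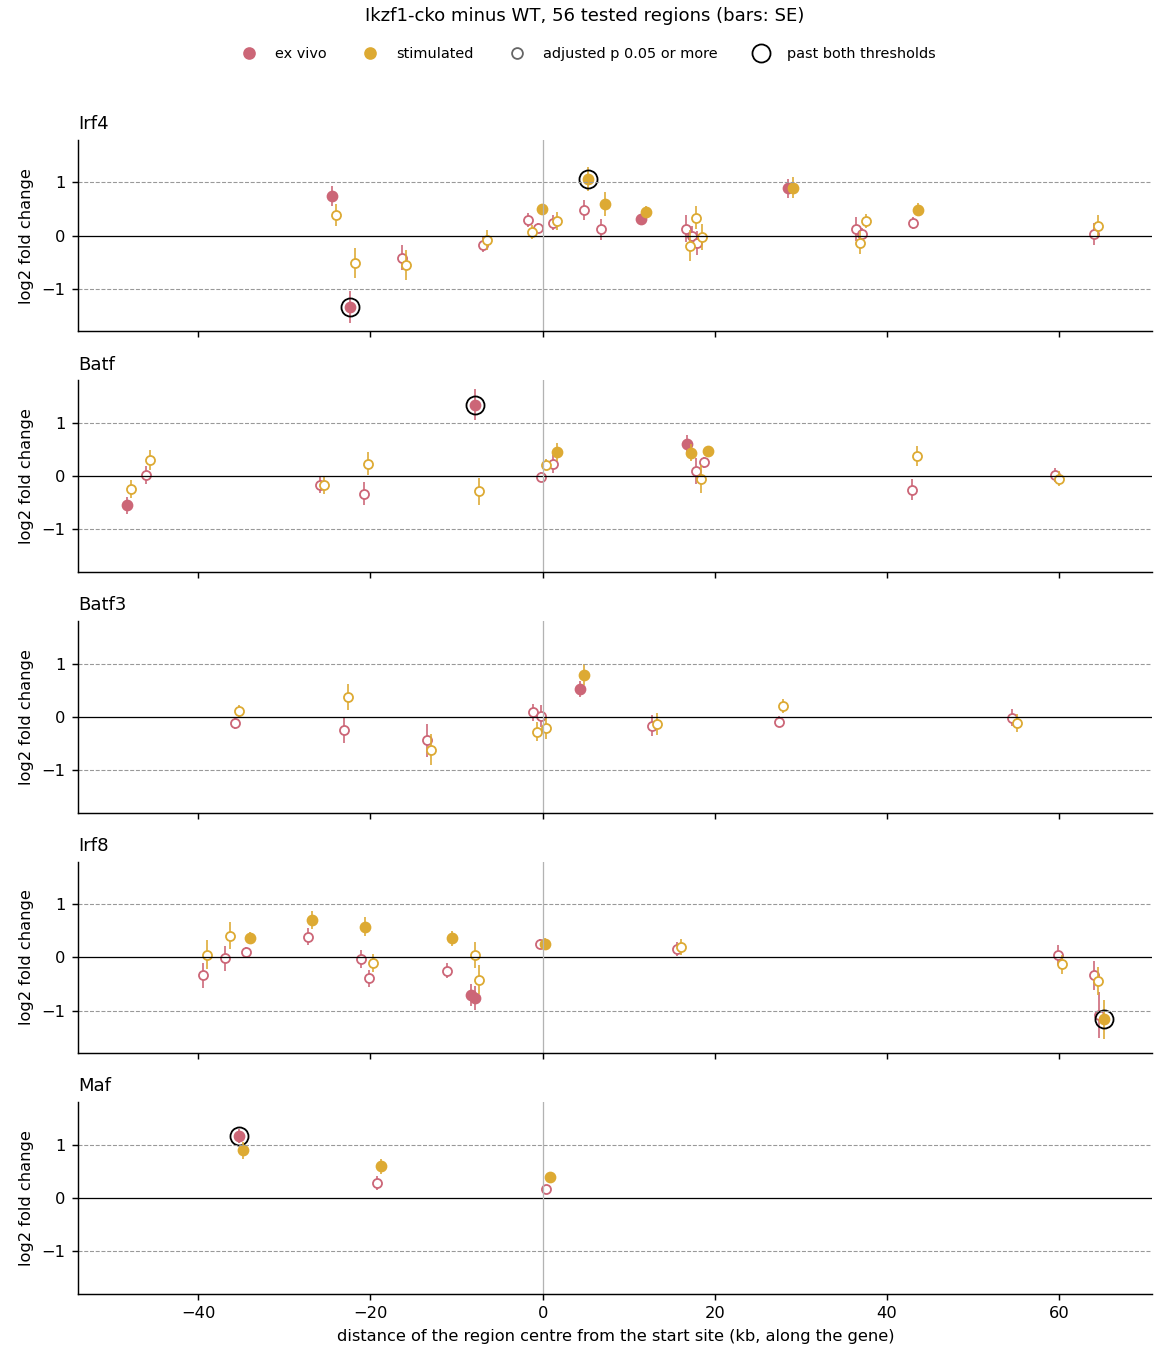
Log2 fold change in accessibility, Ikzf1-cko minus WT, of the 56 tested regions against the distance of their centre from the start site in kb, ex vivo (red) and stimulated (yellow), with the SE as bars. Filled points have an adjusted p under 0.05, open points do not, rings mark regions past both thresholds and dashed lines mark 1 and -1. With library totals as scaling, all 3 tested regions of Maf lie above 0 in both states.

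All 3 tested regions of Maf were higher in stimulated Ikzf1-cko at an adjusted p under 0.05, the start site region not with loess normalization. The distal region OCR_110208 had 11.4, 11.1 and 10.9 FPKM in ex vivo WT and 28.1, 23.9 and 22.5 in ex vivo Ikzf1-cko. After stimulation it had 10.7, 9.29 and 10.0 FPKM in WT and 21.0, 17.2 and 17.7 in Ikzf1-cko. Every Ikzf1-cko library was above every WT library in both states. The log2 fold change was 1.17 ex vivo (SE 0.14, adjusted p = 2.69e-07), where it passed both thresholds in all alternatives except counts thinned to the smallest library (0.93). After stimulation it was 0.89 (SE 0.16, adjusted p = 3.53e-05), below the fold threshold. In Ikzf1-cko the region was lower after stimulation (log2 fold change -0.42, adjusted p = 0.00803, and 0.0884 without ex vivo Ikzf1-cko replicate 1), below the fold threshold, and the interaction was -0.28 (SE 0.21, adjusted p = 0.442). It is the most accessible of the 5 intergenic regions of the locus in ex vivo Ikzf1-cko. The printed window of OCR_110208 holds 1 AP-1 match, away from its middle, and 0 GGGAA cores. The whole region holds the same number of AP-1 matches and 5 GGGAA cores.

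The other tested regions of Maf moved less. OCR_110206, 19.0 kb before the start site, had 9.69, 8.52 and 7.34 FPKM in stimulated WT and 13.4, 12.1 and 13.4 in stimulated Ikzf1-cko, a log2 fold change of 0.59 (SE 0.14, adjusted p = 0.000627). The start site region had 24.5, 27.3 and 28.6 FPKM in stimulated WT and 34.4, 35.4 and 35.6 in stimulated Ikzf1-cko. The groups do not overlap and the log2 fold change was 0.39 (SE 0.07, adjusted p = 5.27e-05), below the fold threshold, and it became -0.01 with loess normalization. Ex vivo the start site region differed by 0.17 (SE 0.07, adjusted p = 0.0674). In WT the start site region was lower after stimulation, by a log2 fold change of -0.34 (SE 0.07, adjusted p = 0.00043), which shrank to -0.06 with loess normalization (adjusted p = 0.525). The 5 untested regions of Maf had few reads. Among them, singled out after its values were seen, OCR_110207 had 3.77, 5.2 and 2.57 FPKM in ex vivo WT and 9.74, 7.3 and 8.38 in ex vivo Ikzf1-cko, while its stimulated libraries of both genotypes lay between 5.32 and 6.27. It lies 32.2 kb before the start site, next to OCR_110208, and holds an IRF repeat.

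At Irf4, 1 distal region that passed the filter mainly through WT libraries was less accessible in Ikzf1-cko, and several regions in and past the gene were higher. OCR_28636, 22.1 kb before the start site, had 10.4, 6.64 and 7.46 FPKM in ex vivo WT and 3.65, 2.62 and 3.08 in ex vivo Ikzf1-cko, with 18 to 32 reads per library. The groups do not overlap. The region reached the minimum of the filter in 5 WT libraries and 1 Ikzf1-cko library, so its differences between genotypes are a description and support nothing. The log2 fold change ex vivo was -1.34 (SE 0.30, adjusted p = 0.00143). With loess normalization it was -0.99, just under the fold threshold. After stimulation the region had 10.9, 9.52 and 7.92 FPKM in WT and 5.43, 5.3 and 9.09 in Ikzf1-cko. These groups overlap through 1 Ikzf1-cko library, and the difference was -0.51 (SE 0.28, adjusted p = 0.131). In Ikzf1-cko this region rose with stimulation, by a log2 fold change of 1.09 (SE 0.29, adjusted p = 0.00581). Without stimulated Ikzf1-cko replicate 3 the rise lost both thresholds (0.77, adjusted p = 0.105). It fell below the fold threshold without ex vivo Ikzf1-cko replicate 2 (0.97), with loess normalization (0.90) and with limma on log2(FPKM + 1) (0.86). In WT its change with stimulation was 0.25 (SE 0.29, adjusted p = 0.495), and the difference between the genotypes in the response did not pass (interaction 0.84, SE 0.41, adjusted p = 0.199).

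The intronic region OCR_28642, 5.0 kb inside Irf4, had 7.76, 10.7 and 9.15 FPKM in stimulated WT and 17.2, 19.1 and 21.0 in stimulated Ikzf1-cko. The Ikzf1-cko libraries were all higher, with a log2 fold change of 1.06 (SE 0.23, adjusted p = 0.000313). The WT libraries held 15 to 20 reads each, and the value fell below the fold threshold without stimulated Ikzf1-cko replicate 3 (0.98), without stimulated WT replicate 1 (0.94) or with limma on log2(FPKM + 1) (0.98). Ex vivo the region had 16.9, 11.3 and 15.0 FPKM in WT and 20.8, 22.2 and 16.0 in Ikzf1-cko, which overlap (log2 fold change 0.48, adjusted p = 0.0653). In WT it was lower after stimulation by -0.63 (SE 0.25, adjusted p = 0.0385, range over the alternatives up to 0.184), below the fold threshold, and in Ikzf1-cko the change was -0.05 (adjusted p = 0.863).

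OCR_28649, 28.8 kb from the start site and past the end of Irf4, was higher in Ikzf1-cko in both states. It had 8.34, 7.04 and 6.02 FPKM in ex vivo WT and 12.3, 15.2 and 11.1 in ex vivo Ikzf1-cko. In stimulated Treg it had 7.17, 6.13 and 5.53 FPKM in WT and 11.5, 11.2 and 12.6 in Ikzf1-cko. Neither state has overlapping libraries. The log2 fold changes were 0.89 (SE 0.17, adjusted p = 0.000421) and 0.90 (SE 0.20, adjusted p = 0.000371), both under the fold threshold, and the interaction was 0.01 (SE 0.27). The region passed both thresholds ex vivo with TMM (1.0045), and after stimulation with DESeq2 and without stimulated WT replicate 1. The start site region of Irf4 had 23.9, 24.4 and 25.8 FPKM in stimulated WT and 36.4, 33.1 and 34.6 in stimulated Ikzf1-cko. Its log2 fold change was 0.49 (SE 0.09, adjusted p = 6.15e-05), with a range of adjusted p over the alternatives from 3.56e-06 to 0.159, and ex vivo it was 0.15 (SE 0.08, adjusted p = 0.193). After stimulation OCR_28643, OCR_28644 and OCR_28652 were also higher in Ikzf1-cko below the fold threshold (0.60, 0.45 and 0.49), and ex vivo OCR_28635 and OCR_28644 were (0.75 and 0.30). None of these 5 differences kept an adjusted p under 0.05 in every alternative. After stimulation OCR_28643 was 0.34 without stimulated WT replicate 1 (adjusted p = 0.265), and with loess normalization OCR_28644 was 0.13 and OCR_28652 0.18 (adjusted p = 0.316 and 0.193). Ex vivo OCR_28635 was 0.54 without WT replicate 3 (adjusted p = 0.0677) and OCR_28644 0.21 with loess normalization (adjusted p = 0.0979).

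At Batf, the region OCR_25288 gave the only interaction past both thresholds among the 56 regions (1.79%, against 1.98% of all tested regions). This intergenic region, 7.6 kb before the start site, had 1.43, 1.81 and 1.73 FPKM in ex vivo WT and 3.48, 4.51 and 4.99 in ex vivo Ikzf1-cko. After stimulation it had 5.14, 5.67 and 5.68 FPKM in WT and 4.18, 5.31 and 4.01 in Ikzf1-cko. The 3 ex vivo WT libraries were thus lower than the other 9, and held 6, 11 and 12 reads. The region reached the minimum of the filter on low counts in 0 of them. Its differences from ex vivo WT and its interaction are therefore a description and support nothing. The log2 fold change between genotypes was 1.34 ex vivo (SE 0.29, adjusted p = 0.00136) and -0.29 after stimulation (SE 0.25, adjusted p = 0.358). The region rose with stimulation in WT by 1.69 (SE 0.31, adjusted p = 8.1e-05), whereas in Ikzf1-cko the change was 0.06 (SE 0.23, adjusted p = 0.868). The interaction, the change in Ikzf1-cko minus that in WT, was -1.63 (SE 0.39, adjusted p = 0.00938, range over the alternatives 0.00531 to 0.0818), and it missed the threshold with limma on log2(FPKM + 1) and on log2(FPKM + 0.1).

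Inside Batf, the intronic region OCR_25293 was higher in Ikzf1-cko in both states and higher after stimulation in both genotypes. It had 12.4, 11.4 and 13.5 FPKM in ex vivo WT, 19.9, 17.4 and 19.6 in ex vivo Ikzf1-cko, 16.7, 22.6 and 15.4 in stimulated WT and 26.5, 25.1 and 23.3 in stimulated Ikzf1-cko. The 4 pairwise log2 fold changes were 0.60 and 0.44 for genotype (adjusted p = 0.0112 and 0.0259) and 0.55 and 0.39 for stimulation in WT and Ikzf1-cko (adjusted p = 0.0211 and 0.042), all below the fold threshold. Each of the 4 lost the adjusted p in at least 1 alternative: with thinned counts the values were 0.41, 0.40, 0.50 and 0.48 (adjusted p = 0.232, 0.105, 0.0741 and 0.112). The interaction was -0.16 (SE 0.24). OCR_25295, also intronic and the most accessible region of the locus in ex vivo WT, was higher in stimulated Ikzf1-cko (0.47, SE 0.11, adjusted p = 0.000659), below the fold threshold, with 19.3, 22.5 and 18.9 FPKM in stimulated WT and 29.5, 23.5 and 30.8 in stimulated Ikzf1-cko. With loess normalization the difference was 0.14 (adjusted p = 0.298). OCR_25290 was also higher (0.45, adjusted p = 0.0291), but not without stimulated Ikzf1-cko replicate 3 (0.40, adjusted p = 0.0878). The start site region had 19.8, 21.6 and 19.6 FPKM in ex vivo Ikzf1-cko and 27.8, 26.5 and 28.3 after stimulation, a log2 fold change of 0.44 (SE 0.09, adjusted p = 0.000646). Between genotypes it differed by -0.02 ex vivo (adjusted p = 0.925) and 0.22 after stimulation (adjusted p = 0.0764). OCR_25279, 48.0 kb before the start site of Batf and over an exon of Jdp2, was less accessible in Ikzf1-cko ex vivo (-0.55, SE 0.16, adjusted p = 0.0136), but not without ex vivo WT replicate 1 (-0.48, adjusted p = 0.0663) or with DESeq2 (-0.46, adjusted p = 0.117).

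OCR_25297, past the end of Batf and nearest to Mfsd7c, had 5.75, 6.9 and 5.94 FPKM in ex vivo Ikzf1-cko and 12.6, 12.2 and 12.4 in stimulated Ikzf1-cko. The libraries are far apart, with a log2 fold change of 1.00 (SE 0.17, adjusted p = 4.06e-05) that lies at the fold threshold and fell below it in 9 of 23 alternatives, to 0.84 with thinned counts, while the adjusted p stayed between 2.29e-06 and 0.0101. In WT the region had 10.4, 6.43 and 6.16 FPKM ex vivo and 11.5, 10.3 and 6.43 stimulated, which overlap (0.37, adjusted p = 0.143), and the interaction was 0.63 (SE 0.27, adjusted p = 0.138).

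Batf3 had 0 regions past both thresholds in each of the 5 comparisons with edgeR, DESeq2 and limma over all 12 libraries, and its start site region differed between no groups at an adjusted p under 0.05. That region had 11.96, 12.8 and 10.6 FPKM in stimulated WT and 10.4, 12.1 and 8.35 in stimulated Ikzf1-cko, which overlap (-0.21, SE 0.21, adjusted p = 0.427). Of the 9 tested regions, the unadjusted p was under 0.05 for 1 ex vivo and 2 after stimulation in the genotype comparisons, and for 3 in each genotype with stimulation (edgeR). The intronic region OCR_8535 moved most within the locus. It had 14.0, 11.0 and 16.4 FPKM in ex vivo WT, 19.1, 19.7 and 20.7 in ex vivo Ikzf1-cko, 6.61, 6.52 and 10.1 in stimulated WT and 10.7, 14.2 and 14.4 in stimulated Ikzf1-cko. It was higher in Ikzf1-cko by 0.52 ex vivo (SE 0.15, adjusted p = 0.015) and 0.79 after stimulation (SE 0.20, adjusted p = 0.00137). It was lower after stimulation by -0.86 in WT (SE 0.21, adjusted p = 0.00109) and -0.59 in Ikzf1-cko (SE 0.14, adjusted p = 0.00303), and none of these 4 comparisons has overlapping groups. Without ex vivo WT replicate 2 the ex vivo difference was 0.36 (adjusted p = 0.153) and the change in WT -1.01, past the fold threshold. Without stimulated WT replicate 3 the difference after stimulation was 1.00 and the change in WT -1.08, both past it. The region holds an AP-1 match. OCR_8538, 27.7 kb past the start site and the most accessible of the locus, had 31.5, 28.3 and 28.7 FPKM in ex vivo WT and 26.9, 19.1 and 19.8 in stimulated WT (-0.41, SE 0.13, adjusted p = 0.0097), which was -0.16 with loess normalization (adjusted p = 0.364) and -0.31 without stimulated WT replicate 2 (adjusted p = 0.0654).

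At Irf8, regions before the gene moved in different directions. The neighbouring regions OCR_110610 and OCR_110611, 8.1 and 7.6 kb before the start site, were less accessible in ex vivo Ikzf1-cko. OCR_110610 had 17.3, 19.9 and 24.8 FPKM in WT and 12.3, 17.0 and 8.98 in Ikzf1-cko ex vivo (-0.71, SE 0.20, adjusted p = 0.013). OCR_110611 had 18.9, 20.8 and 19.6 FPKM in WT and 9.96, 12.5 and 12.7 in Ikzf1-cko (-0.76, SE 0.23, adjusted p = 0.0172). Neither region's groups overlap. In WT both were also lower after stimulation (-0.68 and -0.70, adjusted p = 0.0184 and 0.0282), and after stimulation the genotypes differed by 0.04 and -0.42 (adjusted p = 0.909 and 0.214). All of these were below the fold threshold, apart from the change of OCR_110611 in WT with loess normalization (-1.11, adjusted p = 0.00108). The ex vivo differences between genotypes lost the adjusted p with loess normalization (-0.56 and -0.43, adjusted p = 0.0719 and 0.203). OCR_110610 also lost it without ex vivo WT replicate 3 (-0.54, adjusted p = 0.102), and OCR_110611 without ex vivo Ikzf1-cko replicate 1 (-0.65, adjusted p = 0.087). OCR_110611 passed the filter on low counts through the 3 ex vivo WT libraries, where it is high, and 1 stimulated WT library, so its differences from ex vivo WT are a description and support nothing.

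Several regions before Irf8, and its start site, were higher in stimulated Ikzf1-cko below the fold threshold. OCR_110606, 27.0 kb before the start site, had 7.92, 9.6 and 9.32 FPKM in stimulated WT and 13.7, 15.6 and 14.3 in stimulated Ikzf1-cko, well apart (0.71, SE 0.18, adjusted p = 0.00126). OCR_110607, OCR_110609 and OCR_110605 differed by 0.58, 0.36 and 0.36 (adjusted p = 0.0062, 0.0314 and 0.00922). Without stimulated WT replicate 1 these were 0.39, 0.25 and 0.24 (adjusted p = 0.093, 0.2 and 0.123), and with loess normalization OCR_110609 was 0.18 and OCR_110605 0.05 (adjusted p = 0.326 and 0.775). OCR_110609 was also higher after stimulation in Ikzf1-cko, with 11.2, 10.8 and 10.9 FPKM ex vivo and 16.3, 18.0 and 19.7 stimulated (0.72, SE 0.12, adjusted p = 7.78e-05). Its change in WT was 0.10 (adjusted p = 0.609) and the interaction 0.61 (SE 0.20, adjusted p = 0.0506). OCR_110605, the most accessible region of the locus in ex vivo WT, was lower after stimulation in both genotypes (-0.53 in WT and -0.26 in Ikzf1-cko, adjusted p = 0.000519 and 0.0417). The fall in Ikzf1-cko lost the adjusted p in several alternatives. Among them were stimulated replicate 2 left out (-0.17, adjusted p = 0.257), DESeq2 (-0.29, adjusted p = 0.0911), thinned counts (-0.31, adjusted p = 0.0921) and limma on log2(FPKM + 1) (-0.26, adjusted p = 0.153). The start site region had 24.9, 21.3 and 19.2 FPKM in stimulated WT and 26.0, 25.2 and 27.5 in stimulated Ikzf1-cko (0.26, SE 0.10, adjusted p = 0.038), and this difference was -0.04 with loess normalization and 0.18 without stimulated WT replicate 3 (adjusted p = 0.202).

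The farthest region of the Irf8 window, OCR_110618, had its highest level in stimulated WT. It passed the filter on low counts through the 3 stimulated WT libraries and 1 ex vivo WT library, so its differences from stimulated WT are a description and support nothing. It had 8.33, 2.87 and 2.06 FPKM in ex vivo WT, 2.05, 2.15 and 1.51 in ex vivo Ikzf1-cko, 10.1, 11.1 and 11.1 in stimulated WT and 4.27, 5.61 and 4.46 in stimulated Ikzf1-cko. In ex vivo WT replicate 1 stood far above the other libraries of its group, and counts were low, at 9 to 31 reads per library. The log2 fold change between genotypes was -1.17 after stimulation (SE 0.37, adjusted p = 0.00927, range over the alternatives 0.00017 to 0.819) and it turned to 0.11 with loess normalization. With stimulation it was 1.39 in WT (SE 0.40, adjusted p = 0.00488), which loess normalization reduced to 0.32 and which was 2.12 without ex vivo WT replicate 1, and 1.30 in Ikzf1-cko (SE 0.40, adjusted p = 0.0181). In Ikzf1-cko the call was lost with thinned counts (0.85), with loess normalization (0.81), with limma on log2(FPKM + 1) (0.99) and without stimulated Ikzf1-cko replicate 2 (1.18, adjusted p = 0.0765, range over the alternatives 0.00852 to 0.26).

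**Figure D3:**
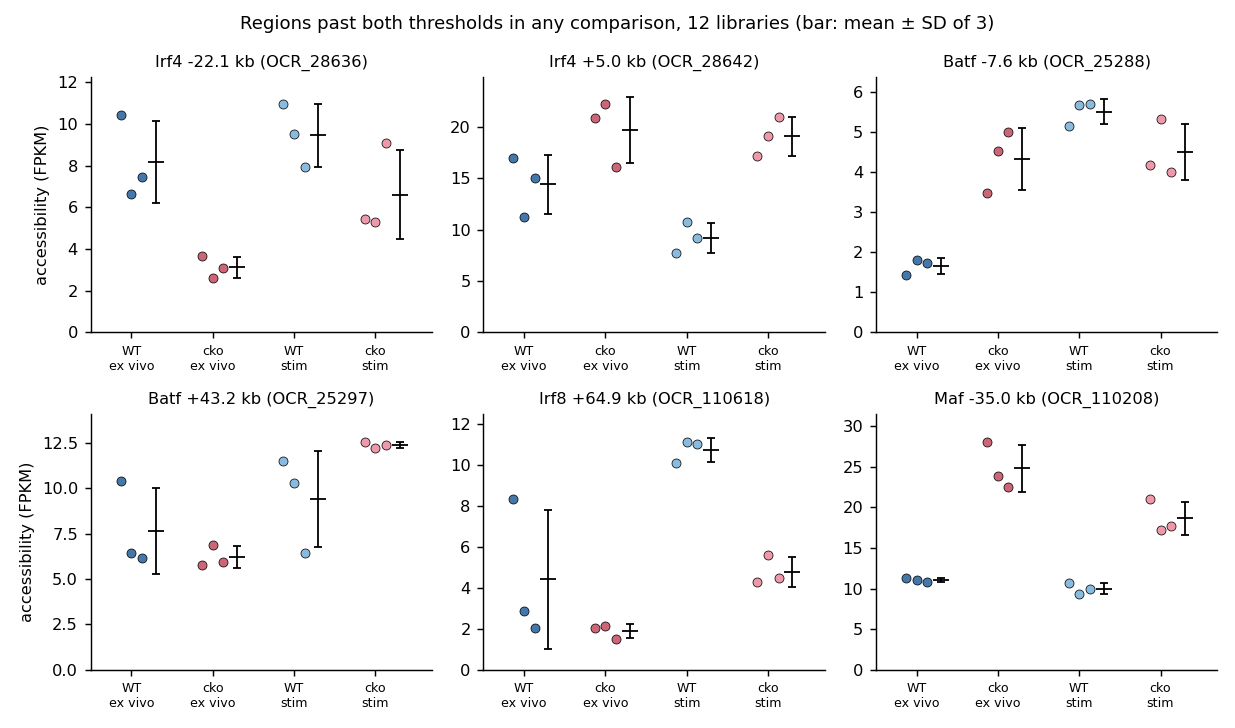
Accessibility in FPKM of the 6 regions past both thresholds in at least 1 comparison, each panel with its own axis from 0 and its distance from the start site. Each point is 1 library (cko, Ikzf1-cko; stim, stimulated) and the bar is the mean ± SD of 3 libraries. At Maf -35.0 kb both Ikzf1-cko groups lie above both WT groups, and at Batf -7.6 kb ex vivo WT lies below the other 3 groups.

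With 4 hr of stimulation, 2 of the 56 regions passed both thresholds in WT, both higher (3.57%, against 20.0% of all tested regions), namely Batf OCR_25288 and Irf8 OCR_110618. Both reached the minimum of the filter in 3 stimulated WT libraries, and in ex vivo WT in 0 and 1 libraries. In Ikzf1-cko 3 passed, all higher (5.36%, against 3.65%), namely Irf4 OCR_28636, Batf OCR_25297 and Irf8 OCR_110618. At an adjusted p under 0.05 alone, 3 regions were higher in WT (5.36%, against 26.9%) and 10 lower (17.9%, against 20.7%). The count of 3 was 5 without ex vivo WT replicate 1 and 6 without stimulated WT replicate 3. Over all regions 18815 became 18438 and 16798. The count of 10 was 6 without ex vivo WT replicate 3 and without stimulated WT replicates 1 or 3. Over all regions 14486 became 11500, 11429 and 12742. With loess normalization the counts of 3 and 10 were 7 and 5, against 16.8% and 15.7% of all regions. In Ikzf1-cko 13 were higher (23.2%, against 12%) and 5 lower (8.93%, against 11.5%). The former was 7 without stimulated Ikzf1-cko replicate 1 and with DESeq2, and the latter 2 without ex vivo Ikzf1-cko replicate 1 and 3 without ex vivo or stimulated Ikzf1-cko replicate 2. Over all regions 8387 higher became 5370 and 4391, and 8042 lower became 5933, 5938 and 6567, in the same order. The median log2 fold change of the 56 regions was 0.07 in WT and 0.10 in Ikzf1-cko, beside 0.04 and 0.06 over all tested regions, and the median of the interaction was 0.21, beside 0.0004. The median of the interaction was 0.05 with loess normalization and 0.14 without stimulated WT replicate 1. With 3.6 CPM required in all 12 libraries it was 0.22, beside 0.15 over all regions so tested. With this filter 0 of 36 members passed both thresholds with stimulation in WT, and 150 of 34257 regions rose and 1089 fell. At the adjusted p alone 1 member was higher and 7 lower in WT, beside 3672 and 12241 regions.

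The regions that were lower after stimulation in both genotypes were Irf4 OCR_28638, Batf3 OCR_8535 and Irf8 OCR_110605 (30.0% of the 10 in WT and 60.0% of the 5 in Ikzf1-cko). The fall of OCR_110605 in Ikzf1-cko lost the adjusted p in several alternatives. OCR_28638, 6.7 kb before the start site of Irf4, had 17.1, 15.5 and 20.3 FPKM ex vivo and 10.0, 9.53 and 9.38 stimulated in WT, and 18.2, 14.7 and 14.2 ex vivo and 8.26, 8.47 and 10.6 stimulated in Ikzf1-cko. No stimulated library reached the lowest ex vivo library of its genotype. The log2 fold changes were -0.88 (SE 0.18, adjusted p = 0.00022) and -0.78 (SE 0.15, adjusted p = 0.000224), below the fold threshold, and between genotypes the region differed by -0.17 ex vivo and -0.08 after stimulation (adjusted p = 0.387 and 0.758). In the window of Batf3, OCR_8530, over exons of Nsl1 and Tatdn3, and OCR_8531, in an intron of Nsl1, were higher after stimulation in Ikzf1-cko (0.41 and 0.82, adjusted p = 0.00247 and 0.0055), where OCR_8531 had 4.91, 3.54 and 3.54 FPKM ex vivo and 7.37, 7.07 and 6.96 stimulated. OCR_8530 lost the adjusted p with thinned counts (0.30, adjusted p = 0.142), and OCR_8531 passed the fold threshold without ex vivo Ikzf1-cko replicate 1. In WT they changed by 0.18 and 0.20 (adjusted p = 0.203 and 0.56). OCR_8531 reached the minimum of the filter in 0 ex vivo and 3 stimulated Ikzf1-cko libraries, and in 1 and 3 WT libraries. Its rise with stimulation is therefore a description and supports nothing. Regions named here that the naming rule in the methods does not cover were chosen after their values were seen.

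**Figure D4:**
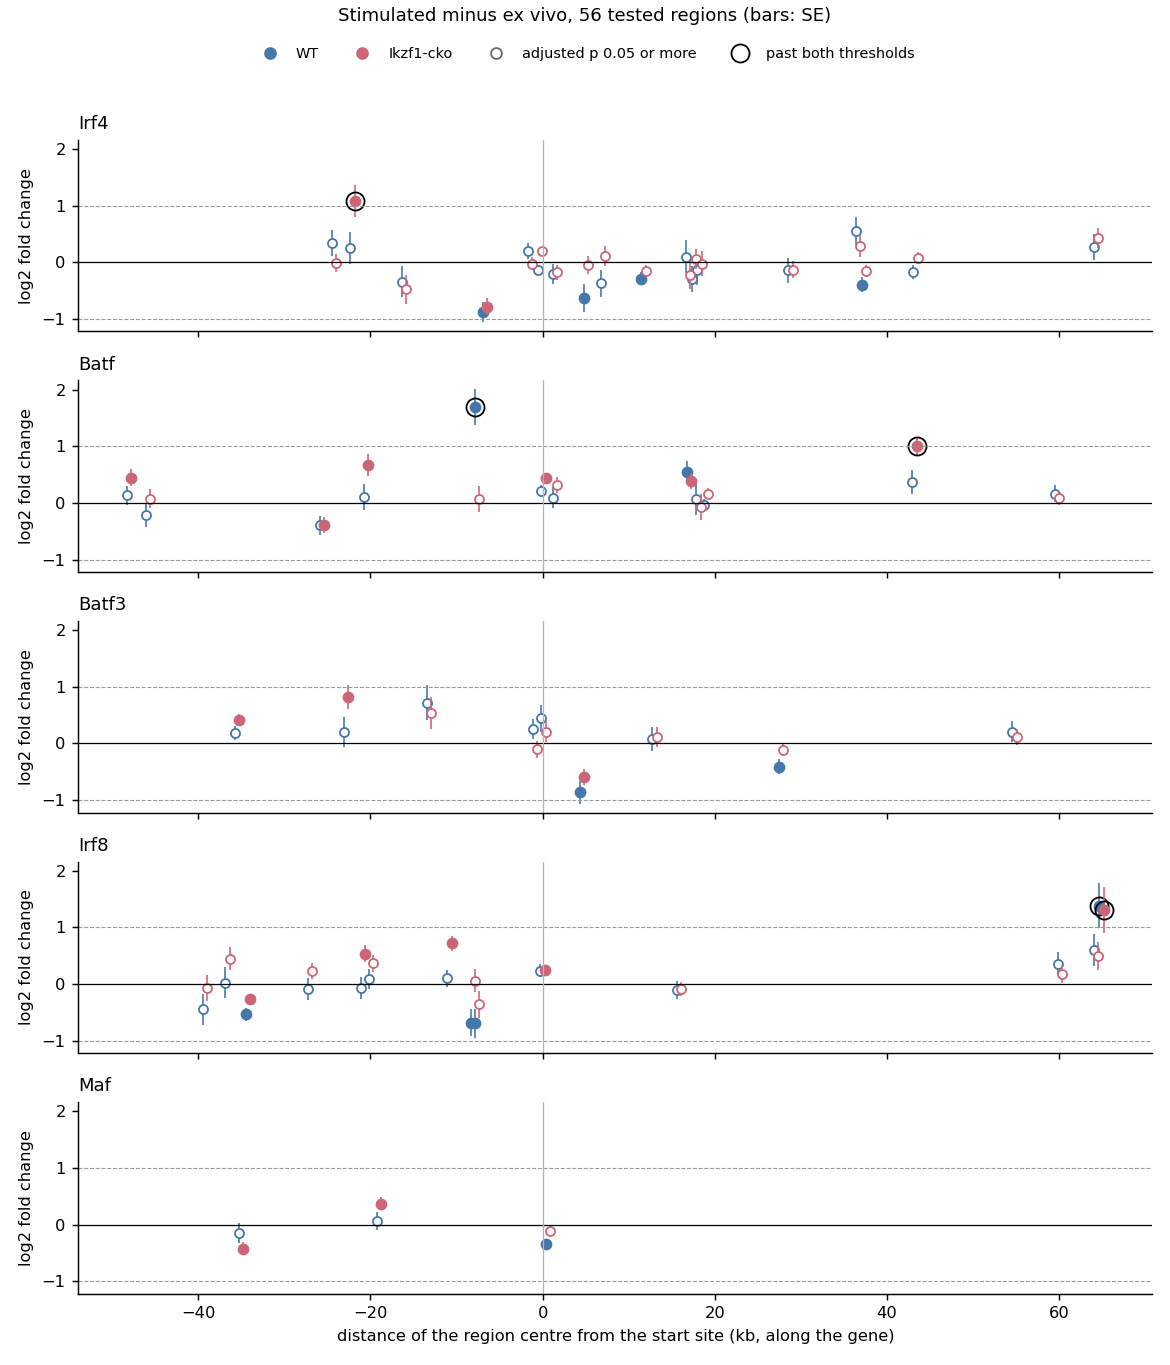
Log2 fold change in accessibility, stimulated minus ex vivo, of the 56 tested regions against the distance of their centre from the start site in kb, in WT (blue) and Ikzf1-cko (red), with the SE as bars. Filled points have an adjusted p under 0.05, open points do not, rings mark regions past both thresholds and dashed lines mark 1 and -1. Batf -7.6 kb stands at 1.69 in WT and 0.06 in Ikzf1-cko.

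Summed over all of its regions, each locus gave 1 value per library, in CPM, counts scaled to the total counted reads of the library. No other scaling was applied to these sums, so the separations below hold for library totals only. Maf had 120.6, 111.4 and 118.7 CPM in ex vivo WT and 145.4, 146.7 and 139.8 in ex vivo Ikzf1-cko. After stimulation Maf had 101.9, 103.2 and 107.5 CPM in WT and 136.1, 134.2 and 136.4 in Ikzf1-cko. The genotypes do not overlap in either state. The Maf sums include the start site region OCR_110205, whose difference after stimulation became -0.0072 with loess normalization. Irf4 had 188.7, 199.5 and 213.8 CPM in ex vivo WT and 231.1, 241.9 and 206.3 in ex vivo Ikzf1-cko, which overlap, and 166.2, 193.3 and 174.5 against 217.6, 215.6 and 239.1 after stimulation, which do not. The sums of Irf8 overlapped ex vivo (means of 139.7 in WT and 137.3 in Ikzf1-cko) and were 136.6 and 155.3 after stimulation without overlap. Batf overlapped in both states (132.7 and 140.0 ex vivo, 148.0 and 167.8 stimulated), as did Batf3 (82.3 and 81.1, 81.7 and 85.3).

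**Figure D5:**
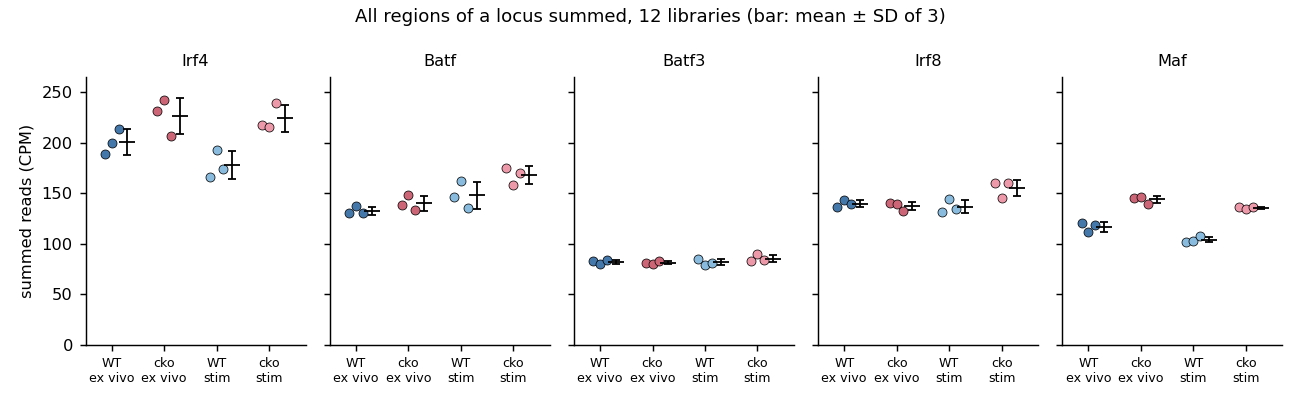
Reads summed over all regions of each locus in CPM. Each point is 1 library (cko, Ikzf1-cko; stim, stimulated) and the bar is the mean ± SD of 3 libraries. With library totals as the only scaling, the Maf sums of Ikzf1-cko lie above those of WT in both states, and those of Batf3 lie between 79.1 and 89.5 in all 12 libraries.

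The start site regions with the pattern most like each gene over the 12 libraries were found by Pearson's correlation of log2(CPM + 1) among 13190 start site regions. They were Gm6658 (0.977), Cd164 (0.968) and Rpl34 (0.965) for Irf4 and Aldoa (0.969), Plekhj1/Sf3a2 (0.961) and Prkd2 (0.958) for Batf. For Batf3 they were Rhd (0.921), Vdr (0.92) and Anapc7 (0.917), for Irf8 Stoml2 (0.95), Capns1 (0.946) and 4933411G11Rik/Rbak (0.935), and for Maf Tbc1d23 (0.989), Stam2 (0.983) and Tmem123 (0.983). The points share libraries, groups and depth, and the values describe likeness only.

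Around 18 genes of the same families and their DNA-binding partners (other IRFs, JUN, FOS and MAF factors, Batf2 and Spi1, the gene of PU.1), 209 of 280 regions were tested. Ex vivo, 1 region, at Fosb, was higher in Ikzf1-cko and 4 were lower, at Fosl2, Irf2, Irf5 and Maff. After stimulation the 4 called regions were all lower in Ikzf1-cko and lay at Irf2, Irf5, Irf7 and Spi1, but this direction depended on the scaling, since loess scaling called 5 regions, all higher. With stimulation 6 rose and 4 fell in WT, which became 5 and 8 under loess scaling, and 6 rose and 4 fell in Ikzf1-cko. The same regions of Fosl1, Irf5, Jun and Mafk rose in both genotypes, and the same regions of Fosb and Junb fell in both. The percentages called were 2.39 and 1.91 for genotype and 4.78 in each genotype for stimulation, against 4.63 and 21.3 for genotype and 20.0 and 3.65 for stimulation in WT and Ikzf1-cko over all tested regions. The filter of 3.6 CPM in all 12 libraries, with far fewer calls over all regions, was not applied to this list.

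Around 16 genes of effector Treg, among them Il10, Icos, Ctla4, Tigit, Klrg1 and the gene of the IL-33 receptor, Il1rl1, 330 of 434 regions were tested. Here 10 were higher and 1 was lower in Ikzf1-cko ex vivo (3.33% called, against 4.63% of all tested regions), and 11 were higher and 2 lower after stimulation (3.94%, against 21.3%). Ex vivo, 5 of the higher regions lay at Klrg1, 2 at Tigit and 1 each at Cxcr3, Il10 and Il1rl1, and the lower region lay at Il2ra, the gene of the IL-2 receptor alpha chain. After stimulation 4 of the higher regions lay at Tigit, 3 at Ikzf2 and 1 each at Cxcr3, Il1rl1, Klrg1 and Rora, and the lower regions lay at Pparg and Rora. With stimulation 1 rose and 13 fell in WT (4.24%, against 20.0%), and 2 rose and 7 fell in Ikzf1-cko (2.73%, against 3.65%). Over all tested regions 12386 rose and 1625 fell in WT, and with 3.6 CPM required in all 12 libraries 150 rose and 1089 fell. The same regions of Ctla4, Il10, Rora and Tigit fell in both genotypes, and 1 region of Pparg rose in both. TMM, DESeq2 and loess scaling gave 14 to 16 higher and 0 to 1 lower ex vivo and 19 to 24 higher and 0 to 1 lower after stimulation. Over all 69957 tested regions, library totals gave 411 higher and 2827 lower ex vivo, and 813 and 14119 after stimulation. Ex vivo these were 685 and 1805 with TMM, 614 and 1791 with DESeq2, and 863 and 730 with loess scaling. After stimulation they were 1204 and 13267, 1437 and 12911, and 1611 and 3120 in the same order. The median log2 fold change between genotypes was 0.15 ex vivo and 0.27 after stimulation, beside -0.13 and -0.11 over all tested regions. With 3.6 CPM required in all 12 libraries the medians over all regions were 0.04 and 0.18. That filter gave 500 higher and 358 lower of 34257 regions after stimulation, and it was not applied to this list.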

How the data were processed

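Per the labels, 12 ATAC-seq libraries of splenic Treg fell into 4 groups of 3, and the stimulation time and cell number come from the study's methods. The authors aligned reads with Bowtie2, called peaks with MACS2 and merged them to a single set of regions (base calls by bcl2fastq, versions not given in the sources used here). The submitters' processing notes name mm9, while the methods print a human build for the alignment. The regions could be placed on mm9, apart from 200 with 0 reads in all libraries. The deposited counts are reads left in each region after removal of duplicates and blacklisted sites, not normalized. The deposited FPKM values divide each count by region length and by the library total over regions, and the deposited log2 FPKM values were not used. A table of the authors' own comparisons (fold changes, F statistics, p-values) was not used either.

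Members and gene lists were chosen with earlier results of these data known. Regions were assigned with GENCODE vM1, and Spi1 was found under its older symbol Sfpi1. Of the marker and gene lists, 2 genes are not reported here. The 69957 regions that reached 3.6 CPM in 3 or more libraries were fitted in 1 model over the 12 libraries with edgeR 4.0.16 (R 4.3.3, library totals as scaling, quasi-likelihood test, 24.4 prior degrees of freedom). Benjamini-Hochberg adjustment covered all tested regions. A call needs an adjusted p under 0.05 together with a log2 fold change above 1 in size. SEs were derived from the fold change and its F statistic. In simulated counts for Ikzf1-cko against WT ex vivo, 199 of 200 regions with a log2 change of 2 were recovered, with 5 false calls over 69957 regions. The simulation used the same dispersion for all regions and means in proportion to library totals. False calls from scaling or from uneven replicates could therefore not appear in it. The study scaled on reads outside regions, which the deposited counts do not hold. The alternatives were TMM, DESeq2 1.42.0, loess normalization, no filter, 3.6 CPM in all 12 libraries, the compared libraries alone, a replicate block over all groups or within genotype, limma 3.58.1 on log2(FPKM + 1) and log2(FPKM + 0.1), counts thinned to the smallest library, the adjusted p alone and each library left out. Named regions are those over a start site, those with the highest mean FPKM in ex vivo WT, those with the smallest p per comparison and all called regions. Other regions past the adjusted p, and OCR_110207, were named after their values were seen. Python 3.11.15, pandas 2.3.3, NumPy 2.4.6 and Matplotlib 3.10.9 were used for summaries and plots.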

Additional observations from a re-analysis of the deposited data

Results flagged for a closer look

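The change of Batf OCR_25288 with stimulation differed between the genotypes by a test of the difference itself, with an interaction of -1.63 on the log2 scale (Ikzf1-cko minus WT) in edgeR's quasi-likelihood test. With both limma fits the interaction was -1.24 and -1.62 and no longer passed. The region reached the minimum of the filter on low counts in 0 ex vivo WT libraries, the group where it is low. Its interaction and its differences from ex vivo WT are therefore a description and support nothing.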

How the results depend on the processing

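The regions called were 3 between genotypes ex vivo, 2 after stimulation, 2 with stimulation in WT, 3 with stimulation in Ikzf1-cko and 1 for the interaction. With 3.6 CPM required in all 12 libraries (36 members tested) the counts in this order were 1, 0, 0, 1 and 0. Over the 34257 regions of that filter, 163 were higher and 176 lower in Ikzf1-cko ex vivo, and 500 and 358 after stimulation. With stimulation, 150 rose and 1089 fell in WT, and 83 and 193 in Ikzf1-cko. In this edgeR fit 19, 10 and 5 members had an unadjusted p under 0.05 where the count was 0. With the adjusted p alone the first 4 counts were 11, 19, 13 and 18. Without a filter, 5 were called between genotypes after stimulation and 5 with stimulation in WT. Limma on log2(FPKM + 1) gave 1 between genotypes after stimulation, 0 with stimulation in Ikzf1-cko and 0 for the interaction, and limma on log2(FPKM + 0.1) gave 0 for the interaction (19, 7 and 8 members at an unadjusted p under 0.05 beside the 3 counts of 0). Loess normalization gave 1 between genotypes after stimulation and 1 with stimulation in Ikzf1-cko, and thinned counts gave 1 for the latter. With each library left out the counts were 3 to 4, 1 to 3, 2 to 3, 1 to 3 and 1 to 1. Without Ikzf1-cko stimulated replicate 3, 1 was called between genotypes after stimulation and 1 with stimulation in Ikzf1-cko. The cause of these changes was not tested.

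Ex vivo and stimulated libraries of a genotype can share a sort, but whether replicate numbers mark it is not given. Deviations of same-numbered libraries correlated between -0.36 and 0.28, so the numbers were not taken as pairs. A replicate block gave 3, 2, 2, 3 and 1 calls, and a block within genotype 2, 3 and 1 for stimulation and the interaction, so neither changed a count of calls. At the adjusted p alone, 13 higher and 5 lower members with stimulation in Ikzf1-cko became 11 and 4 with either block. The 10 lower members in WT became 8 with the block within genotype.

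Scaling moved the median log2 fold change of all tested regions from -0.13 to -0.02 with TMM ex vivo, and from -0.11 to 0.01 with loess normalization after stimulation. With stimulation, 12386 regions rose and 1625 fell in WT and 2113 rose and 442 fell in Ikzf1-cko, which became 2967 and 2004, and 821 and 682, with loess normalization. Of 1553 values of the 70 results for named regions, 1485 kept direction and call, 26 lost the call, 4 gained it and 38, over 17 results, changed sign.

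The sign changed with loess normalization between genotypes after stimulation for Batf OCR_25289 (-0.081), Batf3 OCR_8534 (0.0068) and OCR_8538 (-0.0439), Irf8 OCR_110612 (-0.0435) and OCR_110618 (0.109) and Maf OCR_110205 (-0.0072), and ex vivo for Irf8 OCR_110605 (-0.0057). With stimulation in WT loess normalization turned Irf4 OCR_28640 (0.0991), Batf OCR_25295 (0.203) and Irf8 OCR_110613 (0.0974). It turned the interaction of OCR_25295 (-0.0183), OCR_110205 (-0.0168), OCR_110612 (-0.208) and OCR_110613 (-0.110). Ex vivo, OCR_25289 turned with DESeq2 (0.0784) and TMM (0.104), OCR_8538 with TMM (0.0243) and OCR_8534 with thinned counts (-0.18). The interactions of OCR_110612 and OCR_110613 turned with thinned counts (-0.128 and -0.0578) and TMM (-0.0337 and -0.0169). With each library left out, values ranged across 0 from -0.0599 to 0.0546 (OCR_25289) and -0.1263 to 0.1803 (OCR_8534) between genotypes ex vivo, from -0.1213 to 0.0208 (OCR_25295) and -0.2038 to 0.0566 (OCR_110613) with stimulation in WT, and from -0.0766 to 0.1233 (OCR_110612) and -0.1354 to 0.125 (OCR_110613) for the interaction. Of the 38 values, 3 belong to results with an adjusted p under 0.05 in either fit (OCR_110612, OCR_110618 and OCR_110205 after stimulation). The cause was not tested.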
